A study of Mus musculus with 6 samples.

Results

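Cristae are the folds of the mitochondrial inner membrane that carry the respiratory chain. Their necks are held by the MICOS complex (mitochondrial contact site and cristae organizing system), which also ties the inner to the outer membrane. Prohibitins form ring-shaped scaffolds in the same membrane, and cardiolipin, its signature phospholipid, is made and remodelled on the spot. The heart is rich in mitochondria with dense cristae, and loss of the cardiolipin remodelling enzyme tafazzin causes a cardiomyopathy in humans (Barth syndrome). Described here are 10 genes chosen by name from these systems: the MICOS subunits Immt, Chchd3, Chchd6 and Apool, the outer membrane partner Samm50, the intermembrane space protein Chchd10, the prohibitins Phb and Phb2, and the cardiolipin enzymes Taz and Crls1. All 10 symbols were found among the 23284 listed genes, all 10 were above 0 in all 6 libraries and all 10 passed the filter on low values, a mean of at least 1 FPKM (reads scaled by gene length and library total).

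The study removed Tfam, which encodes the protein that packages mitochondrial DNA and starts its transcription, from the developing heart. Poly(A) RNA of whole C57BL/6 mouse hearts was sequenced at E13.5, in mid-gestation. The Tfam KO group was Tfamfl/fl with Nkx2.5IRES-Cre/+ and the Control group was Tfamfl/+ with Nkx2.5IRES-Cre/+, so both groups carried Cre in 1 copy of the Nkx2-5 locus and the controls kept 1 intact Tfam allele. Nkx2-5 drives Cre in the cardiac lineage, so cells of a heart outside that lineage keep their alleles. Each group had 3 libraries, each a pool of 5 hearts, and the sex of the embryos is not given in the labels. The comparison asks how the heart transcriptome differs without an intact Tfam allele in the cardiac lineage.

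Library totals worked out from the deposited values were between 12370092 and 18078620 reads, of which between 14.95% (Tfam KO replicate 3) and 32.5% (Control replicate 1) fell on the ribosomal precursor Rn45s. As deposited, the median tested gene was 0.28 higher in Tfam KO hearts on the log2 scale, and after size factors (0.828 to 1.33, which bring the libraries to a common scale) it was 0.01 higher. A pool below is 1 library. Levels are FPKM after size factors, in the order of replicates 1, 2 and 3, and changes are on the log2(FPKM + 1) scale with size factors unless said otherwise. Tfam was at 3.39, 5.17 and 4.68 FPKM in KO pools and at 5.60, 6.39 and 6.55 FPKM in the controls, with all 3 KO libraries below all 3 controls and a log2 fold change of -0.42 (SE 0.15, limma adjusted p = 0.152), so the targeted gene did not pass the test. That value takes in reads from any exon that Cre leaves in place and from cells in which Cre was never active. Cardiomyocyte markers, 8 genes such as Tnnt2 and Myh6, summed to 3604 to 6089 FPKM in KO pools and 5106 to 6460 FPKM in the controls, and 1 of the 8, Ttn, was called lower and 0 higher. In 3 of the 8, Myh7, Actn2 and Ttn, all 3 KO libraries lay below the controls (11.6% of tested genes), and in 0 above (12.5%). Only 2 of the 8 log2 fold changes, those of Myh6 and Myl7, were above 0 (52.0% of tested genes). Of 26 tested markers of endothelial, epicardial, mesenchymal, erythroid, macrophage and liver cells, 0 were called with size factors. Some were called as deposited and by limma-voom, fits in which Chchd10 passed too. As deposited 1 of 6 endothelial and 2 of 5 mesenchymal markers were called higher, where 6.21% of all tested genes were. The 1 tested liver marker was called lower as deposited and by limma-voom (1.16% and 4.09% of tested genes). Calls of these markers are not given for the other fits in which Chchd10 or Immt passed. Ttn was called lower by limma-voom and not as deposited. Erythroid markers summed to 2677 to 8590 FPKM in KO pools and 5227 to 10568 FPKM in the controls, with Hba-a1 listed at 0 in all libraries. The skeletal muscle markers Myod1 and Myf5 and the foregut markers Nkx2-1 and Foxa2 stayed under 0.2 FPKM in every library, Myf5 and Foxa2 being listed at 0. In whole hearts, fewer cells of a type and less RNA per cell cannot be told apart.

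The 10 genes spanned a wide range of levels. In control hearts Chchd10 stood highest, with a median of 99.6 FPKM and 97.5% of tested genes below it, followed by Phb2 (67.5 FPKM), Immt (47.6), Chchd3 (45.3), Phb (39.4), Samm50 (19.7), Apool (14.8), Crls1 (6.20), Taz (5.97) and Chchd6 (2.19 FPKM, with 19.3% of tested genes below it). In this order of medians, neighbours did not overlap in the 3 control libraries except Immt with Chchd3 and Crls1 with Taz. The medians of the KO libraries had the same order, there with an overlap of Phb2 with Immt and none elsewhere. Taz and Crls1 lay near the middle of all tested genes, with 53.2% and 50.7% of them below. The values of Chchd6 rested on only 24 to 45 reads a library, and the exact Poisson 95% interval of the 24 reads in Control replicate 1 was 15.4 to 35.7, which covers counting error only.

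**Figure D1:**
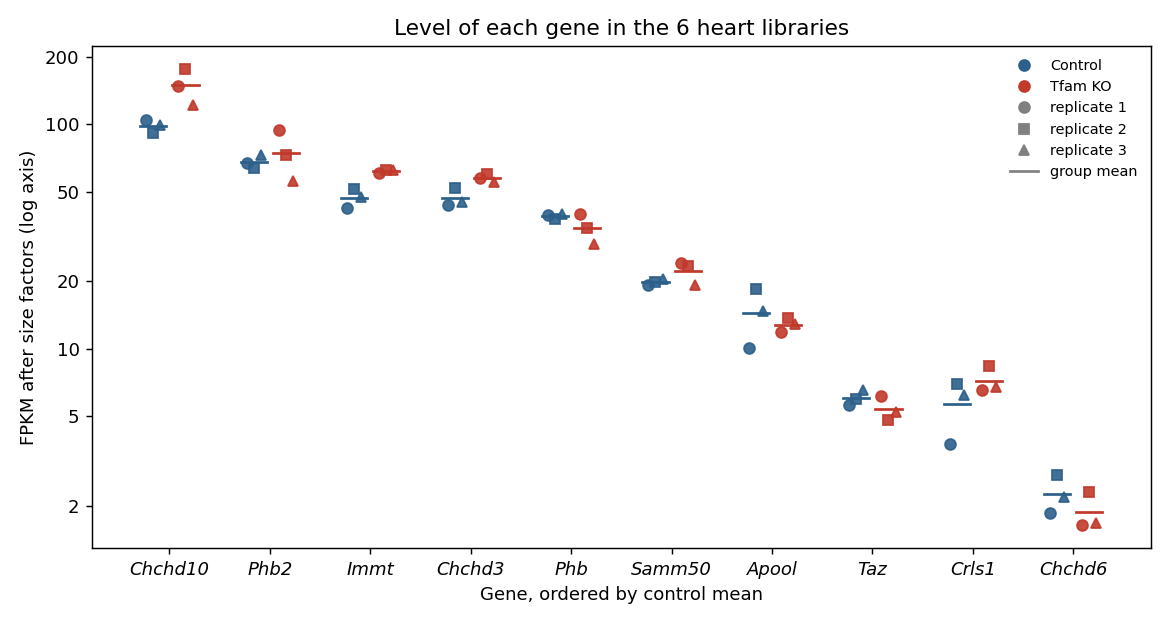
Level of each of the 10 genes, as FPKM after size factors on a log axis, in the 3 Control (blue) and 3 Tfam KO (red) libraries, with symbols for the replicates and bars for group means. Chchd10, Immt and Chchd3 are the genes in which every KO library lies above every control library.

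None of the 10 genes passed an adjusted p of 0.05 in limma with size factors, in either direction, where 2.07% of the 10807 tested genes were called higher and 2.5% lower. Before adjustment, 3 of the 10 (Chchd10, Immt and Chchd3) had p under 0.05 upwards and 0 downwards, against 8.87% and 10.4% of all tested genes. The same 3 were those in which all 3 KO libraries lay above all 3 controls, a separation found upwards in 12.5% of tested genes, and 0 of the 10 separated downwards (11.6% of tested genes). By limma-voom on the whole reads recovered from the FPKM values, 1 of the 10, Chchd10, was called higher (2.72% of tested genes) and 0 lower (4.09%). As deposited, Chchd10 and Immt were called higher (6.21% of tested genes) and 0 lower (1.16%). In the deposited fit limma took each variance wholly from the trend over all genes. Its p-values and intervals therefore do not measure the spread of a gene's own libraries on the deposited scale. On that scale all 3 KO libraries lay above the controls in 5 of the 10, with Samm50 and Crls1 added (25.6% of tested genes), and below them in 0 (2.34%). The median log2 fold change of the 10 genes was 0.12 with size factors, with 6 of 10 above 0, and 0.44 as deposited, against 0.01 and 0.28 over all tested genes.

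**Figure D2:**
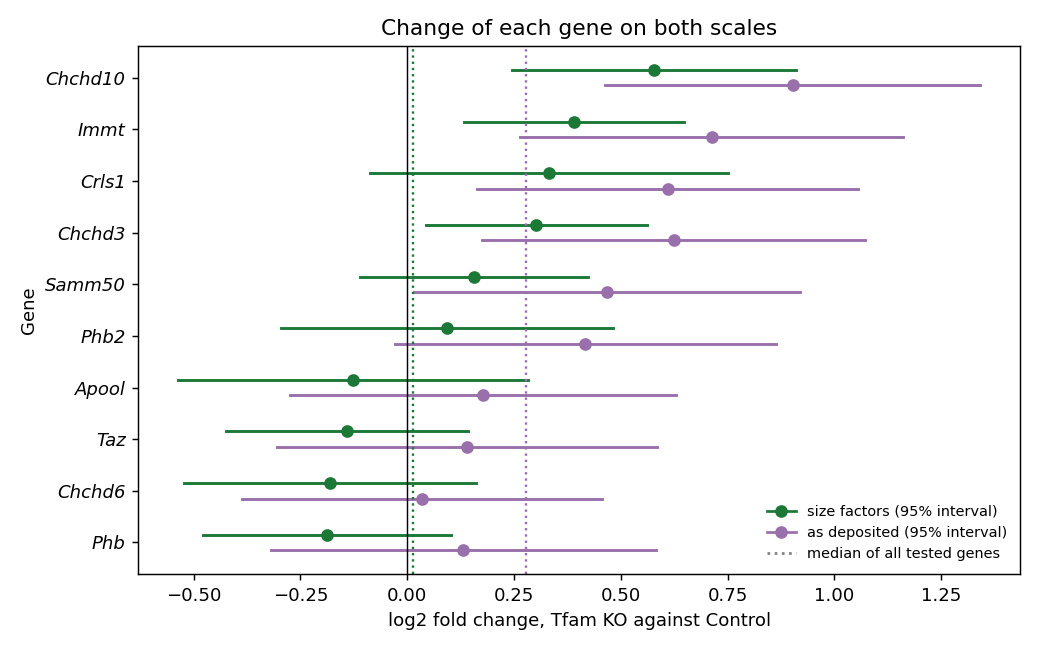
Log2 fold change of each gene, Tfam KO against Control, with its 95% interval from limma, with size factors (green) and as deposited (purple). The deposited intervals take their variance from the trend over all genes, not from the libraries of each gene. Dotted lines give the median of all tested genes, 0.01 and 0.28, and the intervals of Chchd10, Immt and Chchd3 lie above 0 on both scales.

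Chchd10 encodes a small protein of the intermembrane space that has been linked to MICOS and whose mutations cause motor neuron disease and myopathy in humans. It was at 149, 177 and 122 FPKM in KO pools and at 105, 92.0 and 99.6 FPKM in the controls. Every KO library lay above every control, with replicate 3 the lowest and replicate 2 the highest of the KO libraries. The means were 149.5 ± 27.4 and 98.9 ± 6.60 FPKM (SD, n = 3 each), 1.51-fold apart, and the log2 fold change of 0.58 (SE 0.15, 95% interval 0.24 to 0.91) had a limma adjusted p = 0.0577. On the deposited scale the means were 167 ± 6.88 and 89.2 ± 10.6 FPKM, and the log2 fold change was 0.90. The limma adjusted p = 0.00238 there rests on an SE of 0.22 set by the trend over genes, not on these SDs. With limma-voom the log2 fold change was 0.58 and the adjusted p = 0.0228. Its gene was well covered, with 937 to 2573 reads a library. In the reference annotation the opposite strand carries Mmp11, a matrix protease gene that shares 155 exon bases with Chchd10, and how strand was treated in counting is not given. Mmp11 was at 1.95 to 3.53 FPKM in the 6 libraries, with overlapping groups. The summed cardiomyocyte markers were at 3604, 6089 and 4000 FPKM in the KO libraries, highest in replicate 2 like Chchd10. In the controls they were at 6101, 6460 and 5106 FPKM, highest in replicate 2, where Chchd10 was lowest. As deposited Chchd10 was highest in KO replicate 1, at 175, 163 and 162 FPKM in the KO libraries. The part of cell makeup in the level of Chchd10 was not tested.

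Immt encodes MIC60, the central scaffold of MICOS. It was at 61.02, 62.8 and 62.4 FPKM in KO pools and at 42.6, 51.6 and 47.6 FPKM in the controls. With size factors the KO libraries were tightly grouped (62.1 ± 0.922 FPKM, against 47.2 ± 4.49, SD, n = 3 each) and all lay above the controls. As deposited they were not (70.8 ± 12.5 FPKM, against 42.7 ± 6.67), but all again lay above the controls. The log2 fold change was 0.39 (SE 0.12, 95% interval 0.13 to 0.65, limma adjusted p = 0.0899), and 0.71 as deposited (adjusted p = 0.0321). Between 1356 and 3824 reads a library lay behind these values. A pseudogene outside these tables, Gm19617, matches 315 bases of the transcript at 94.9% identity.

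Chchd3 encodes MIC19, which binds MIC60 and bridges it to the outer membrane. It was at 57.9, 60.4 and 55.4 FPKM in KO pools and at 43.6, 51.8 and 45.3 FPKM in the controls, and here too the groups did not overlap. The log2 fold change was 0.30 (SE 0.12, 95% interval 0.04 to 0.56, limma adjusted p = 0.187), and 0.62 as deposited (adjusted p = 0.0696). Its level ran close to that of Immt, its partner in the complex, in each library: the Immt to Chchd3 ratio was 1.05, 1.04 and 1.13 in KO pools and 0.977, 0.994 and 1.05 in the controls.

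The promoters of the 3 genes whose KO libraries all lay above the controls are shown so that their elements can be compared, and the 3 were picked for those values. They are the 250 bases before the transcription start in RefSeq on GRCm38.p6, on the strand of the gene, at chr10:75932880-75933129 (+ strand) for Chchd10, chr6:71831070-71831319 (+ strand) for Immt and chr6:33060261-33060510 (- strand) for Chchd3. Capitals mark matches to TGATGNAA, the core of the composite element bound by ATF4 with C/EBP factors, and to CCAAT, the box bound by NF-Y.
Chchd10: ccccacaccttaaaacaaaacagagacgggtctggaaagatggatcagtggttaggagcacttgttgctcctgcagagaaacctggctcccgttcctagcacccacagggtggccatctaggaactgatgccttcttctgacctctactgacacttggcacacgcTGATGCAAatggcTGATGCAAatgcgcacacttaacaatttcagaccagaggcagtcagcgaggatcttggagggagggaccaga
Immt: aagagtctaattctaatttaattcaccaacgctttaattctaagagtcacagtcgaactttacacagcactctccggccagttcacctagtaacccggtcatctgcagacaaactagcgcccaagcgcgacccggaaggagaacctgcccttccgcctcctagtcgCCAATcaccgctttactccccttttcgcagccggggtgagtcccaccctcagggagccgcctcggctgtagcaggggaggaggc
Chchd3: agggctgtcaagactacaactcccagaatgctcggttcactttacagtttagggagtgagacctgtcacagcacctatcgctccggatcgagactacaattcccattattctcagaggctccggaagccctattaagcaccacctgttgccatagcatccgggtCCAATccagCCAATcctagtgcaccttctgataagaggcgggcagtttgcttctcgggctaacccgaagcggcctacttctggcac

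The Chchd10 promoter holds TGATGCAA at 78 to 85 and again at 65 to 72 bases before the start, both on the strand of the gene. On either strand, TGATGNAA was found in the promoters of 3.91% of the 27025 genes searched, and 13 of them (0.0481%) held it 2 or more times. It was in no promoter of the other 9 genes, both starts of Crls1 included. CCAAT was in 6 of the 10, Immt and Chchd3 among them but not Chchd10, and in 37.5% of all genes. In Chchd3 it occurred at 82 to 86 and 73 to 77 bases before the start and in Immt at 80 to 84. Of 3 other motifs searched on both strands, the ETS element CCGGAAGT was in Phb2 (2 matches, 3.23% of all genes), the estrogen-related receptor half-site AAGGTCA was in Chchd6 (4.70% of all genes) and the palindromic NRF1 site was in 0 of the 10 (0.877% of all genes). These matches describe the letters of the windows and do not show that a factor binds there.

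The other MICOS subunits among the 10 were not apart between the groups. Chchd6 encodes MIC25, a relative of MIC19, and was at 1.63, 2.30 and 1.68 FPKM in KO pools and at 1.85, 2.73 and 2.19 FPKM in the controls. The groups overlapped, and the log2 fold change of -0.18 (95% interval -0.52 to 0.16, limma adjusted p = 0.583) turned to 0.03 as deposited. Apool encodes MIC27, a subunit that binds cardiolipin, from the X chromosome. It was at 11.9, 13.6 and 12.9 FPKM in the KO libraries, inside the wide control range of 10.1, 18.5 and 14.8 FPKM. Its log2 fold change was -0.13 (95% interval -0.54 to 0.28, limma adjusted p = 0.772) and 0.18 as deposited.

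Samm50 is the core of the machinery that inserts beta-barrel proteins into the outer membrane, and it docks MICOS to that membrane. It was at 24.1, 23.4 and 19.3 FPKM in KO pools and at 19.3, 19.7 and 20.4 FPKM in the controls. KO replicate 3 lay among the controls and the other two KO libraries above them. The log2 fold change was 0.16 (SE 0.12, 95% interval -0.11 to 0.42, limma adjusted p = 0.538). As deposited all 3 KO libraries lay above the controls, with a log2 fold change of 0.47 (adjusted p = 0.179).

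The prohibitins Phb and Phb2 assemble in alternation into 1 complex. Phb was at 39.7, 34.5 and 29.2 FPKM in KO pools and at 39.4, 37.8 and 40.1 FPKM in the controls. With size factors the controls were close together (39.1 ± 1.16 FPKM), whereas the KO libraries spread from the control level down (34.5 ± 5.28 FPKM). As deposited the controls were at 35.3 ± 4.51 FPKM and the KO libraries at 39.0 ± 7.39 FPKM. The log2 fold change of -0.19 (SE 0.13, 95% interval -0.48 to 0.10, limma adjusted p = 0.489) turned to 0.13 as deposited. Phb2 was at 94.3, 72.9 and 55.8 FPKM in the KO libraries, on both sides of the control values of 67.5, 64.0 and 73.0 FPKM. Its log2 fold change was 0.09 (SE 0.17, 95% interval -0.30 to 0.48, limma adjusted p = 0.825) and 0.42 as deposited (adjusted p = 0.22). With size factors the KO libraries were in the same order for both genes, highest in replicate 1 and lowest in replicate 3. As deposited the order was again shared, but with replicate 1 highest and replicate 2 lowest. Processed pseudogenes copy much of the Phb transcript, and 1 of them, Gm7666, matches 819 of its 1799 bases at 99.9% identity. Among the listed genes, the pseudogene 1700071K01Rik matches 819 bases at 91.9% identity and a transcript of Fyb 339 bases at 100%. Reads may have been shared between these and Phb, and the level of Phb is uncertain to that extent. Exons of Phb2 and Immt also overlap annotated genes of the opposite strand by 141 and 185 bases. On the same strand, those of Phb2 share 155 bases with the snoRNA gene Gm23547 and those of Samm50 share 111 bases with another transcript.

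Neither of the cardiolipin genes passed the test. Crls1, cardiolipin synthase, was at 6.53, 8.35 and 6.76 FPKM in KO pools and at 3.77, 6.98 and 6.20 FPKM in the controls. KO and control libraries overlapped, with Control replicate 1, at 83 reads, the lowest. The log2 fold change was 0.33 (SE 0.19, 95% interval -0.09 to 0.75, limma adjusted p = 0.383). As deposited the groups did not overlap and the log2 fold change was 0.61 (adjusted p = 0.0755). Taz, the X-linked gene of tafazzin, was at 6.16, 4.82 and 5.25 FPKM in KO pools and at 5.61, 5.97 and 6.58 FPKM in the controls. Its groups overlapped, and the log2 fold change of -0.14 (SE 0.13, 95% interval -0.42 to 0.14, limma adjusted p = 0.607) turned to 0.14 as deposited.

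Ratios of partner genes within a library do not depend on how the libraries are scaled, and 6 were compared by exact two-sided permutation tests, for which 3 libraries against 3 allow no p below 0.1. The largest log2 difference of the 6 was that of Chchd10 against Chchd2, its close relative, with which it forms complexes. The ratio of their FPKM values was 5.61, 5.48 and 5.28 in KO pools and 2.83, 2.42 and 2.86 in the controls, a 2.02-fold difference with no overlap (log2 difference 1.02, exact p = 0.1, 0.2 after adjustment over the 6 ratios). Chchd2 alone was at 26.6, 32.3 and 23.2 FPKM in KO pools and at 37.2, 38.0 and 34.9 FPKM in the controls, with a log2 fold change of -0.42 (limma adjusted p = 0.117) and -0.10 as deposited. With size factors every KO library lay above every control for Chchd10 and below every control for Chchd2. The ratio could therefore not overlap between groups, and its exact p was fixed by those values. The log2 ratio varied little among libraries of a group, with an SD of 0.04 in KO and 0.14 in control hearts.

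The Phb to Phb2 ratio was 0.421, 0.472 and 0.523 in KO pools and 0.583, 0.591 and 0.549 in the controls, so that every KO library lay below every control (log2 difference -0.29, exact p = 0.1, adjusted 0.2). Reads shared with the sequences that match Phb or with the snoRNA gene that overlaps Phb2 may enter this ratio, and their part was not tested. The Chchd6 to Chchd3 ratio was also lower in every KO library, at 0.0281, 0.0380 and 0.0303 against 0.0424, 0.0526 and 0.0483 (log2 difference -0.58, exact p = 0.1, adjusted 0.2), on the few reads of Chchd6. For Immt to Chchd3, Apool to Apoo (the gene of MIC26, a relative of MIC27) and Taz to Crls1 the groups overlapped, with log2 differences of 0.09, 0.66 and -0.56 and an exact p = 0.2 each.

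**Figure D3:**
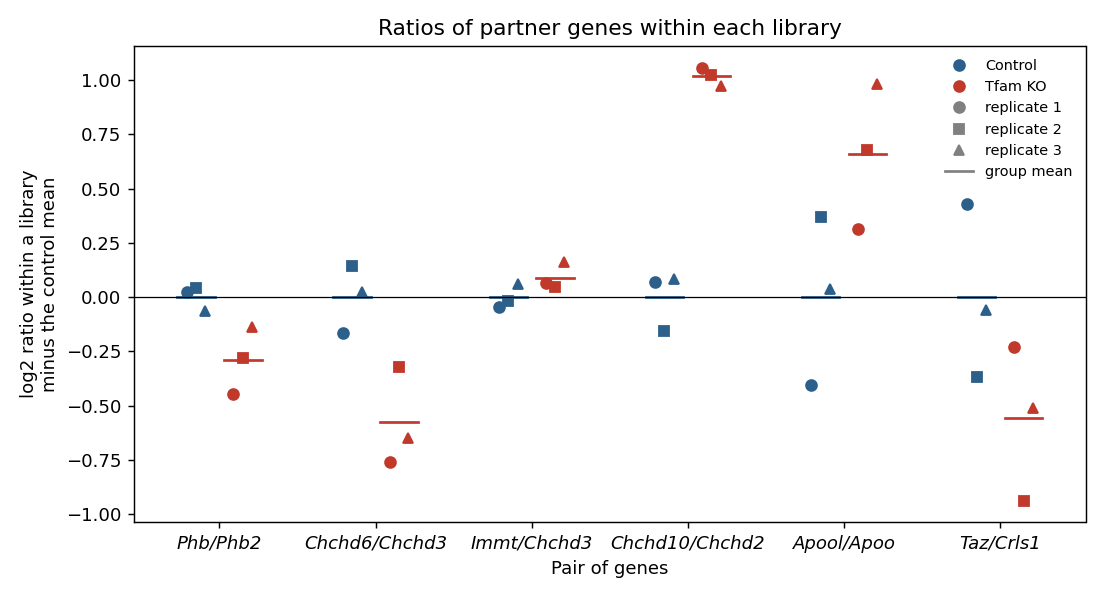
Log2 ratio of 6 pairs of partner genes within each library, less the control mean of that pair, for Control (blue) and Tfam KO (red) with bars for group means. The KO libraries lie above all controls for Chchd10/Chchd2 and below all controls for Phb/Phb2 and Chchd6/Chchd3.

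Calls among genes around these systems are set beside those of all tested genes, 2.07% higher and 2.5% lower with size factors. Before adjustment these shares were 8.87% and 10.4%. Of 11 other genes of MICOS and its partners, Opa1, Atad3a and Chchd2 included, 0 were called higher and 0 lower in limma with size factors. Before adjustment at 0.05 the counts were 1 and 2, by limma-voom 0 were called, and the median log2 fold change was 0.07. The largest difference was that of Apoo, at 1.73, 1.55 and 1.18 FPKM in the KO libraries against 2.42, 2.60 and 2.61 FPKM in the controls. All 3 KO libraries lay below the controls, with a log2 fold change of -0.52 (limma adjusted p = 0.0605) and -0.30 as deposited (adjusted p = 0.328). As deposited 1 gene of this list was called higher, Tmem11, whose protein binds MICOS, with a log2 fold change of 0.69 (limma adjusted p = 0.0434, named after its values were seen). Scaled by size factors, the difference was 0.37 (adjusted p = 0.162).

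Of 13 tested mitochondrial proteases and prohibitin partners, 2 were called higher and 0 lower with size factors (2.07% and 2.5% of tested genes). Before adjustment at 0.05 the counts were 2 and 1 (8.87% and 10.4%), and by limma-voom 2 and 1 (2.72% and 4.09%). All 3 KO libraries lay above the controls in 3 of the 13 and below them in 2 (12.5% and 11.6%). Lonp1, the matrix protease that also degrades TFAM protein, rose to 72.4, 66.2 and 55.3 FPKM in KO pools from 22.4, 22.1 and 20.2 FPKM in the controls (log2 fold change 1.53, SE 0.13, limma adjusted p = 9.92e-05). Afg3l2, a subunit of the m-AAA protease that prohibitins bind, was at 29.4, 30.4 and 28.02 FPKM in KO pools and at 18.4, 23.3 and 19.9 FPKM in the controls (log2 fold change 0.50, SE 0.12, limma adjusted p = 0.0464). Its groups did not overlap, but its call was lost in 5 of 6 fits that left out 1 library, all but the fit without Control replicate 2 (adjusted p between 0.0748 and 0.173). The median of this list was 0.07. Spg7, which pairs with Afg3l2 in that protease, was at 12.5, 9.91 and 9.40 FPKM in KO pools and at 15.3, 15.82 and 14.0 FPKM in the controls and did not pass (log2 fold change -0.47, limma adjusted p = 0.0721). It passed by limma-voom (adjusted p = 0.0457) and was named for that after its values were seen.

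Of 16 tested genes of cardiolipin and phospholipid metabolism and transfer, 0 were called higher and 0 lower with size factors (1 each way before adjustment at 0.05, and 0 by limma-voom). Their median was 0.13, with 12 of 16 above 0, where 52.0% of all tested genes were above 0. The largest difference was in Prelid1, a carrier of phosphatidic acid to the inner membrane, at 77.8, 61.4 and 44.3 FPKM in KO pools and 82.7, 73.7 and 86.6 FPKM in the controls (log2 fold change -0.43, limma adjusted p = 0.231, groups overlapping). Its log2 fold change was -0.22 without Tfam KO replicate 3, its lowest library, and -0.11 as deposited. Of 6 genes of the ATP synthase dimer interface, which bends cristae at their rims, 0 were called in either direction (0 also before adjustment at 0.05, and by limma-voom), with a median of -0.12. Atp5k, which encodes subunit e, had the largest difference, a log2 fold change of -0.46 with overlapping groups (limma adjusted p = 0.377). Its value rested on single libraries, at -0.14 without Tfam KO replicate 1, -0.71 without Tfam KO replicate 2 and -0.14 as deposited.

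**Figure D4:**
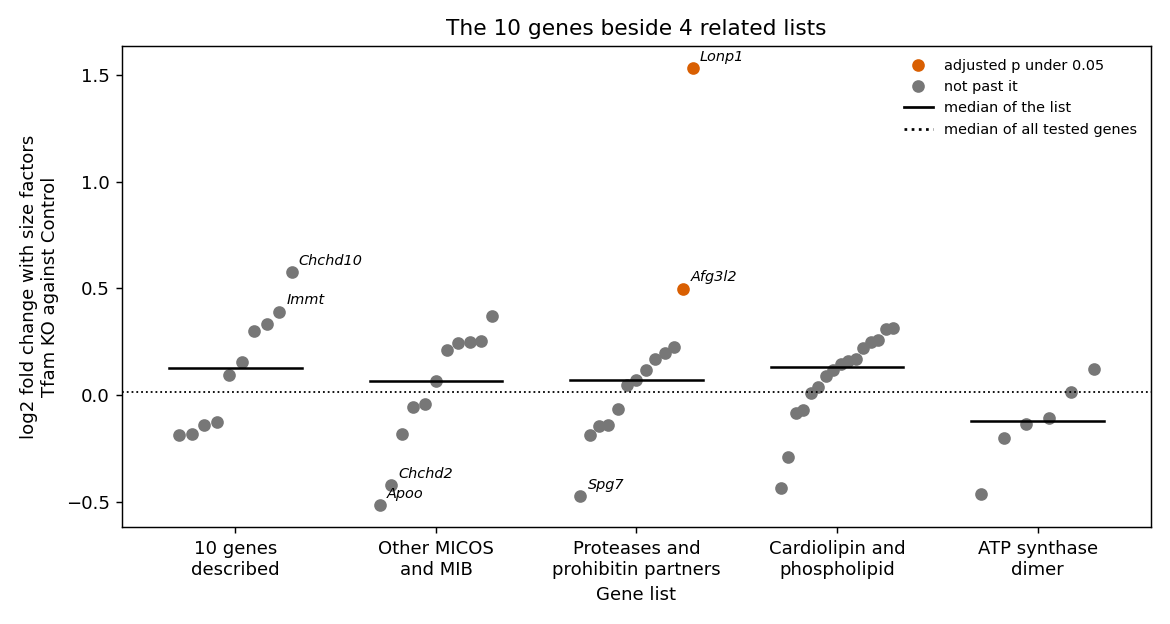
Log2 fold change with size factors of the 10 genes and of the tested genes of 4 related lists, with orange points for an adjusted p under 0.05, black bars for list medians and a dotted line for the median of all tested genes (0.01). Lonp1 and Afg3l2 are the only called genes among those drawn.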

How the data were processed

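The deposited tables held 1 value a gene, log2(FPKM + 1) by the authors. The file names give FPKM and the base was worked out from the values: turned back from base 2, 12.3% to 18.0% of low values fell on a common step, against at most 0.293% with natural or base 10 logs. Per the submitters' processing notes the build was mm9 and the tools HTSeq 0.5.3, TopHat2 2.0.7 and CASAVA 1.8.2. Sources used here do not give the annotation, strand setting or FPKM computation. Coordinates in the tables were placeholder words.

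Whole reads were recovered from the steps (tolerance 1e-05 of a read, widening with the count) for all 17876 genes above 0, and library totals from genes of 1 transcript length in GENCODE vM21. Values were divided by median-of-ratios size factors, because the deposited libraries differed in overall scale, and tested with limma 3.58.1 (R 4.3.3) as log2(FPKM / size factor + 1) over the 10807 genes whose deposited mean reached 1 FPKM: group as the only term, variances moderated with a trend, two-sided, Benjamini-Hochberg over all tested genes, threshold 0.05. Ratios within libraries were compared by exact permutation. Similar transcripts (at least 200 bases at 90% identity) and overlapping exons came from GENCODE vM21 (GRCm38), and promoters from RefSeq. Replicates were separate pools of hearts.

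The members, lists, motifs and tests were chosen with earlier results of these data known. All 10 genes are named, with the list genes past the threshold or, where none passed, the one with the largest difference.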

Additional observations from a re-analysis of the deposited data

How the results depend on the processing

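Direction held under all alternatives run for Chchd10 (log2 fold changes 0.45 to 0.90), Immt (0.31 to 0.71), Chchd3 (0.25 to 0.62), Crls1 (0.11 to 0.61) and Samm50 (0.10 to 0.47). The call of Chchd10 passed in 4 of 9 other settings, and in 1 of 6 fits that left out a library, without Tfam KO replicate 3 (adjusted p = 0.0241), with adjusted p from 0.00238 to 0.173 over all. As deposited, direction reversed for Phb (0.13), Chchd6 (0.034), Apool (0.18) and Taz (0.14). On library totals without Rn45s, an alternative chosen after seeing the data like limma-voom, it reversed for Phb (0.0052), Apool (0.057) and Taz (0.028), and Chchd10 and Immt passed (adjusted p = 0.0040 and 0.0298). Over the fits that left out 1 library, Phb2 ran from -0.091, without Tfam KO replicate 1, to 0.283, and Apool from -0.352 to 0.063, without Control replicate 2. The cause was not tested.

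Genes called higher and lower numbered 224 and 270 with size factors, 671 and 125 as deposited (84.3% higher, against 45.3%), 522 and 184 on totals without Rn45s (73.9% higher), 294 and 442 by limma-voom, and 169 and 143 with no filter. Called among the 10 genes were 2 as deposited and on totals without Rn45s (522 of 10807 tested genes called higher on those totals). By limma-voom and with a filter at 5 FPKM 1 was called. That filter left Chchd6 untested, and of the 5912 genes tested with it 179 were called higher and 230 lower. Of the other genes of MICOS and its partners, 1 was called higher as deposited and on totals without Rn45s. Of the proteases and prohibitin partners, 1 instead of 2 was higher with a pseudocount of 0.1, no filter or no variance trend, and 1 lower by limma-voom. Leaving out each library gave 140 to 221 genes higher, 119 to 342 lower, 0 to 1 of the 10 genes higher, 1 to 2 proteases and partners higher and 0 to 1 lower. The 6 ratio differences kept their direction in all of these fits.

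Replicate numbers are shared by the groups, but the labels do not say that a number marks a litter or day, so no pairing was assumed. Deviations of same-numbered libraries correlated at 0.36, 0.07 and 0.16, and those of other pairs at -0.39 to 0.25. Tfam KO replicates 1 and 2 correlated best with the control of the same number, and Tfam KO replicate 3 with Control replicate 2 (0.25). These correlations do not settle whether the numbers mark pairs. With the replicate block, 287 genes were higher and 394 lower, 0 of the 10 genes passed, and 1 protease gene, Spg7, was lower.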

Other observations

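Afg3l2 and Spg7 encode subunits of the m-AAA protease, which prohibitins bind, and the mouse has a further subunit gene, Afg3l1. Afg3l1 was at 6.36, 7.004 and 6.20 FPKM in the Tfam KO libraries, overlapping the 5.47, 6.91 and 6.48 FPKM of the controls. Chosen after its values were seen and therefore not tested, the ratio of Afg3l2 to Spg7 FPKM was 2.35, 3.07 and 2.98 in the Tfam KO libraries and 1.21, 1.47 and 1.42 in the controls, 2.04-fold apart with no overlap. As for the ratio of Chchd10 to Chchd2, the value does not depend on the scale of the libraries. Here too the separation was fixed, since with size factors every KO library lay above the controls for Afg3l2 and below them for Spg7.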
